A study of Mus musculus with 6 samples.

Results

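Integrins and laminins were examined in slow-cycling and faster-cycling chondrocytes of the mouse growth plate. Every gene of the count table whose symbol names an integrin α chain, an integrin β chain or a laminin chain was taken, which gave 37 genes of 23159. They comprised 26 integrins (18 α and 8 β chains) and 11 laminins (5 α, 3 β and 3 γ chains). After a filter on low counts, 31 of the 37 could be tested: 13 α and 7 β integrin chains and all 11 laminin chains. The 6 that could not were *Itga2*, *Itgad*, *Itgae*, *Itgam*, *Itgax* and *Itgb2*.

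Bulk RNA-seq libraries were made from 3 experiments, each giving a library of label-retaining chondrocytes (LRCs) and a library of non-LRCs from the same pooled littermates. All mice were homozygous for 4 alleles. Col2a1-tTA sat at Peli2, TRE-H2B-GFP sat at Col1a1, and Col2a1-creER and the R26R tdTomato reporter completed the genotype. In both groups doxycycline was given from postnatal day (P) 21 to P49, which stops synthesis of the H2B-GFP nuclear label, and tamoxifen was given on P46 and P47, which switches on tdTomato. Cells were taken at P49 from growth plates of the distal femur and proximal tibia, and CD45-negative, tdTomato-positive cells were sorted into LRCs (high H2B-GFP, about 10000 cells) and non-LRCs (mid-low H2B-GFP, about 50000 cells). A *Col2a1* promoter drives both the label and the recombinase, so that the tdTomato gate selects cells with recent *Col2a1* promoter activity. The H2B-GFP label marks past activity less strictly. Without the Col2a1-tTA transgene the paper saw weak label in osteoblasts and osteocytes of sections, but almost no GFP-positive cells by flow cytometry. That all 6 libraries came from 3 litter pools means that the paired tests below have 3 pairs.

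Integrins are heterodimers of an α and a β chain that span the plasma membrane and tie the extracellular matrix to the actin cytoskeleton. The α chain largely sets which matrix protein is bound, and different sets of α chains read collagens, laminins, or the RGD motif of fibronectin and vitronectin. Laminins are secreted trimers of an α, a β and a γ chain. They form the network of basement membranes, and in cartilage they have been described around chondrocytes as part of the pericellular matrix.

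The 6 libraries held 18943789 to 129559872 counts, with the fewest in the LRCs of experiment 2. That shallow library lacked any count for 1731 of the 13728 tested genes (12.6%), and the other 5 lacked 4 to 365. Among the members the share was larger, with 8 of the 31 tested (25.8%) at 0 there. *Col2a1* took 7.003% to 17.4% of all counts, and 10 chondrocyte markers summed to 82925 to 226224 CPM (counts scaled to a common library size) in LRCs and 135904 to 237061 CPM in non-LRCs, so that the markers of the labelled cell type were present in all 6 libraries. Fewer cells of a type and less RNA per cell cannot be told apart in bulk libraries, and reads were not tagged by molecule, so that limits quoted for low counts cover counting error only.

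**Figure D1:**
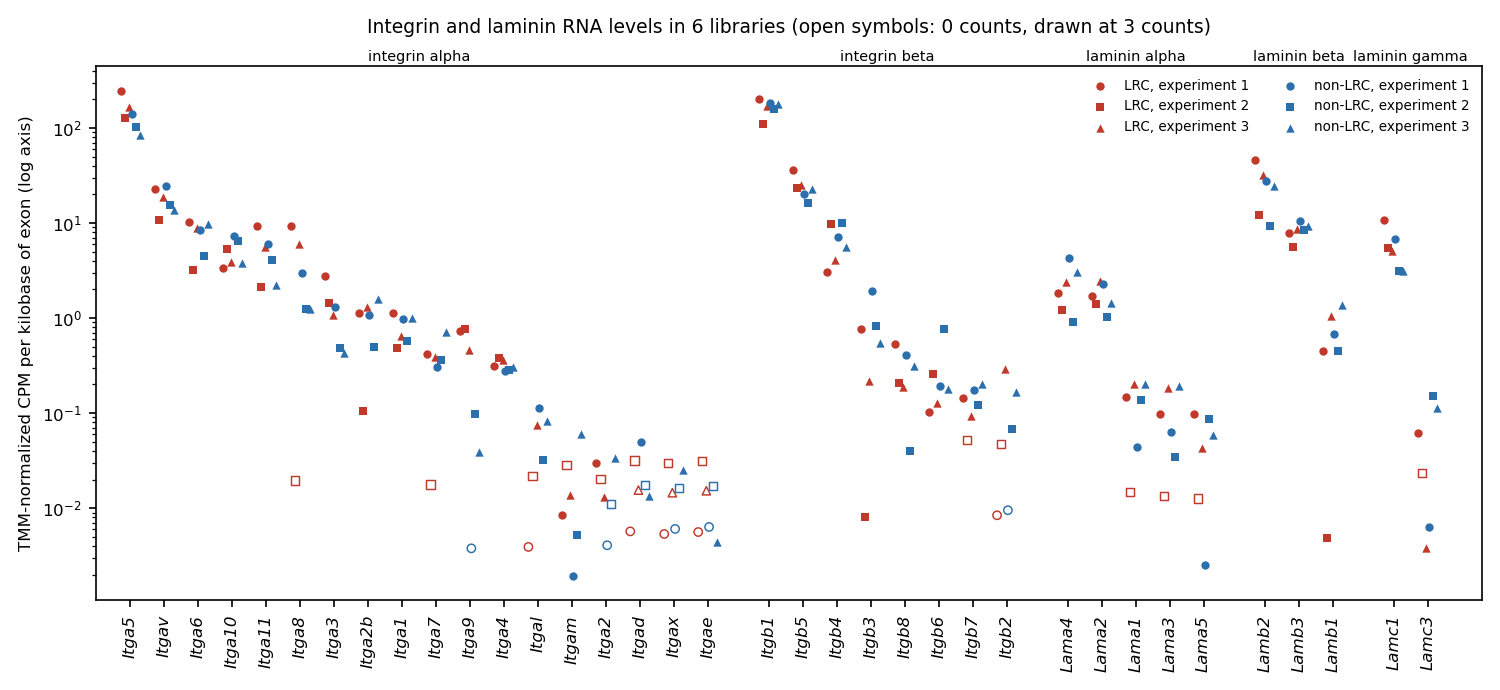
RNA levels of integrin and laminin genes in CPM per kilobase of exon (log axis), by chain class, with circles, squares and triangles for experiments 1 to 3, red for LRCs and blue for non-LRCs. Open symbols mark 0 counts and are drawn at the level of 3 counts; *Itga5* and *Itgb1* stand highest in all 6 libraries, and the LRC library of experiment 2 holds most of the low outlying points.

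Per kilobase of exon, *Itga5* and *Itgb1* were the most abundant integrin chains in both groups. Their products pair as the fibronectin receptor. *Itga5* reached 179 ± 61.3 CPM per kilobase in LRCs and 109 ± 29.1 in non-LRCs (mean ± s.d., *n*=3), and *Itgb1*, the β chain shared by most matrix-binding integrins, reached 160 ± 45.6 and 173 ± 11.8. *Itgb1* stood above *Itga5* in all 3 non-LRC libraries, whereas their order differed between the LRC libraries. Next among the α chains came *Itgav*, the promiscuous RGD-binding chain, at 17.4 ± 6.11 CPM per kilobase in LRCs and 18.0 ± 5.85 in non-LRCs. *Itga6*, *Itga10*, *Itga11* and *Itga8* followed with means of 4.19 to 7.44 CPM per kilobase in LRCs and 1.81 to 7.5 in non-LRCs. The order among these 4 did not hold across libraries, since their ranges overlapped. Among the β chains *Itgb5*, a partner of the αv chain, came second at 28.1 ± 6.78 CPM per kilobase in LRCs and 19.6 ± 3.25 in non-LRCs, and *Itgb4*, the partner of *Itga6* in epithelial hemidesmosomes, followed at 5.61 ± 3.54 and 7.64 ± 2.24.

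The laminin chains were all lower than *Itga5* and *Itgb1*, and unequal between classes. *Lamb2* was the highest, at 29.9 ± 16.8 CPM per kilobase in LRCs and 20.5 ± 9.86 in non-LRCs, ahead of *Lamb3* at 7.37 ± 1.59 and 9.38 ± 1.08. The γ chain *Lamc1* was at 7.07 ± 3.13 CPM per kilobase in LRCs and 4.35 ± 2.13 in non-LRCs. No laminin α chain exceeded 2.77 CPM per kilobase as a group mean: *Lama2*, the muscle and nerve laminin α chain, and *Lama4*, known from vessel walls, shared the lead in LRCs at 1.86 ± 0.529 and 1.82 ± 0.595. *Lama3*, known from epithelial basement membranes, was at 0.0936 CPM per kilobase in LRCs and 0.0967 in non-LRCs, with 124, 0 and 84 counts in the LRC libraries and 70, 14 and 103 in the non-LRC libraries. *Lamb1*, the widely used β chain, was at 0.499 and 0.831 CPM per kilobase. Levels per kilobase assume that reads cover the exons evenly, which was not tested.

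**Figure D2:**
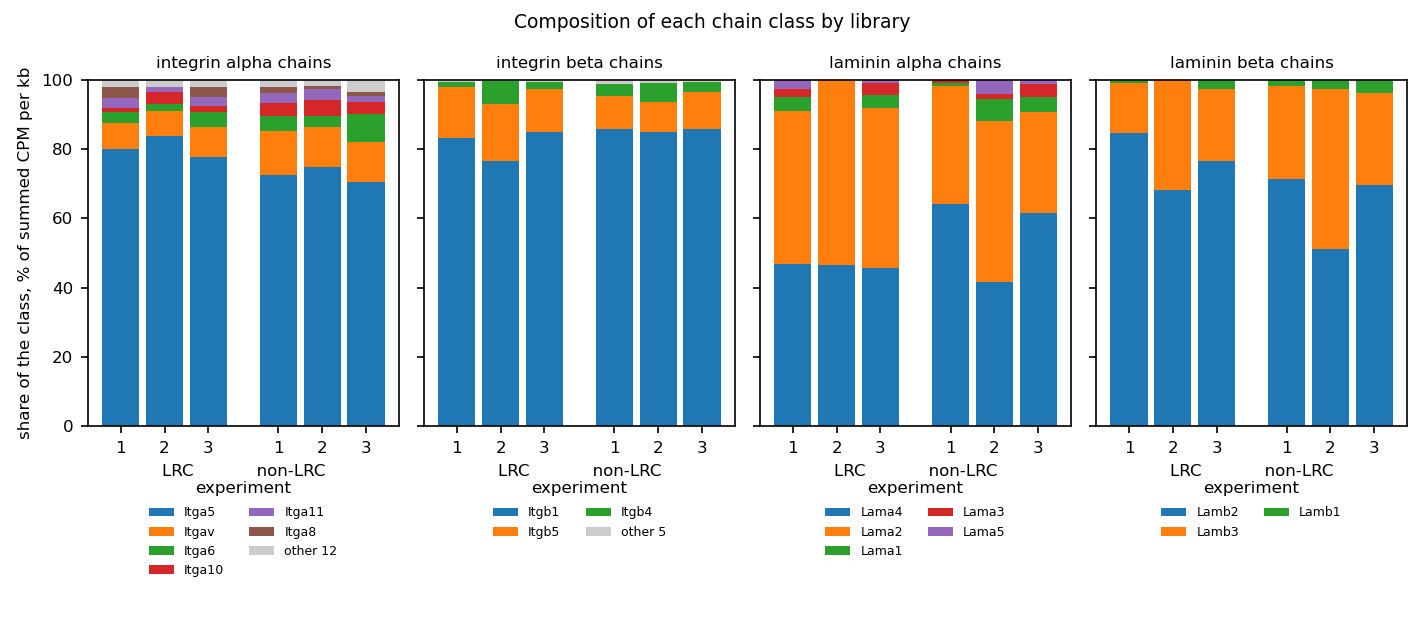
Share of each chain in the summed CPM per kilobase of its class (vertical axis, %), for integrin α and β chains and laminin α and β chains, with 1 bar per library and the 3 experiments of LRCs left of the 3 of non-LRCs in each panel. *Itga5* takes 77.7% to 83.8% of the α chain signal in LRCs and 70.6% to 74.9% in non-LRCs, and *Lamb2* takes the largest part of the laminin β class in all 6 libraries.

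To compare the makeup of each class without the scaling between libraries, each chain was expressed as a share of the summed CPM per kilobase of its class in that library. *Itga5* made up 80.1%, 83.8% and 77.7% of α chain RNA in LRCs (experiments 1, 2 and 3 in turn, here and below), and 72.5%, 74.9% and 70.6% in the non-LRC libraries. The groups did not overlap, and the LRC share was higher by 7.56, 8.91 and 7.10 percentage points within experiments. *Itgav* stood the other way, with 7.39%, 7.10% and 8.76% in LRCs and 12.7%, 11.5% and 11.6% in non-LRCs, again without overlap. The collagen-binding α chains together (*Itga1*, *Itga2*, *Itga10* and *Itga11*) took 4.82 ± 0.37% of α chain RNA in LRCs and 7.13 ± 1.11% in non-LRCs, and the LRC share was lower in all 3 experiments. Within that set *Itga10*, the collagen receptor chain typical of cartilage, was at 1.09%, 3.49% and 1.85% in LRCs and 3.76%, 4.71% and 3.21% in non-LRCs, an overlap at the edge. The laminin-binding α chains (*Itga3*, *Itga6* and *Itga7*) took 4.10 ± 0.95% in LRCs and 6.04 ± 2.72% in non-LRCs. Among the β chains *Itgb5* made up 14.9%, 16.2% and 12.6% in LRCs and 9.54%, 8.59% and 10.9% in non-LRCs, which did not overlap. *Itgb1* took 83.2%, 76.7% and 84.8% in LRCs and 85.8%, 85.1% and 85.7% in non-LRCs, also without overlap. Shares of a class sum to a whole, so that a larger share of one chain lowers the others. With 3 pairs an exact two-sided sign-flip permutation test cannot fall below *p*=0.25, and the shares are therefore given without a test.

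In the laminin β class *Lamb2* took 84.7%, 68.2% and 76.6% in LRCs and 71.3%, 51.2% and 69.7% in non-LRCs. The groups overlapped, although within each experiment the LRC share was higher, by 13.5, 16.9 and 6.95 percentage points. In the α class *Lama2* took 48.0 ± 4.88% in LRCs and 36.7 ± 9.05% in non-LRCs and was higher in LRCs in all 3 experiments, whereas *Lama4* took 46.3 ± 0.57% and 55.8 ± 12.5% and was higher in LRCs in experiment 2 only.

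Ratios of 2 chains of the same class within a library were also taken, on a log2 scale. They rest on the same values as the shares and add no separate support. The pairs of chains were chosen after their values were seen, and the ratios are a description. The *Itga5* to *Itgav* ratio was larger in LRCs by 0.93, 0.85 and 0.54 in experiments 1 to 3 (mean 0.77 ± 0.21), and the lowest LRC ratio (3.15) lay above the highest non-LRC ratio (2.71). The *Itgb5* to *Itgb1* ratio was larger by 0.69, 1.07 and 0.23, also without overlap. Ratios of *Lamb2* to *Lamb3* were larger by 1.15, 0.95 and 0.48, and the groups overlapped. The ratio of *Itga11* to *Itga10*, 2 collagen receptor chains, was larger in LRCs by 1.75 and 1.29 in experiments 1 and 3 and smaller in experiment 2, with a difference of −0.68.

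**Figure D3:**
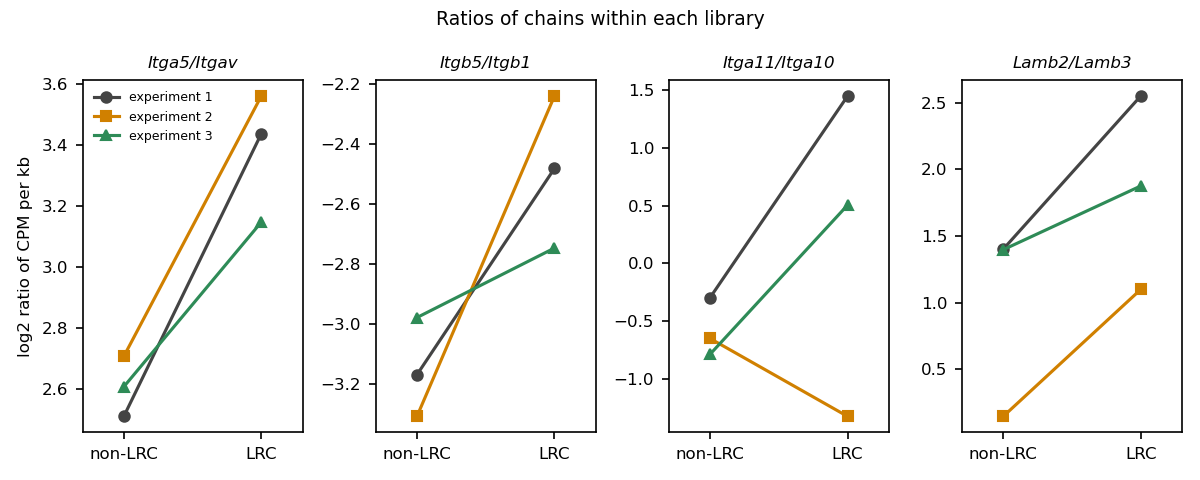
Log2 ratios of CPM per kilobase for 4 pairs of chains (vertical axes, scaled per panel and not starting at 0), with a line joining the non-LRC and the LRC library of each experiment. The lines rise from non-LRC to LRC in all 3 experiments for 3 pairs, and the line of experiment 2 falls for *Itga11* over *Itga10*.

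The sequences just upstream of *Itga5*, *Itgav* and *Itgb5* are shown as 3 examples, chosen after their values were seen, of abundant chains whose share of their class did not overlap between the groups. RefSeq promoter entries (GRCm38.p6) matched 23 of the 37 members, and the 250 bases before the annotated start were read in the direction of transcription, for *Itga5* at chr15:103366792-103367041 on the minus strand, for *Itgav* at chr2:83724147-83724396 and for *Itgb5* at chr16:33829415-33829664 on the plus strand. Capitals mark the GC box, GGGCGG on either strand.
Itga5: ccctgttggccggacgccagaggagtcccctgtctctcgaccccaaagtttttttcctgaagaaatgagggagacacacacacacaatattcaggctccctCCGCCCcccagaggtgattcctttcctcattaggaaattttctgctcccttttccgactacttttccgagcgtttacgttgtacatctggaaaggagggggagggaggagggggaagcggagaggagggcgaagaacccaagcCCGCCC
Itgav: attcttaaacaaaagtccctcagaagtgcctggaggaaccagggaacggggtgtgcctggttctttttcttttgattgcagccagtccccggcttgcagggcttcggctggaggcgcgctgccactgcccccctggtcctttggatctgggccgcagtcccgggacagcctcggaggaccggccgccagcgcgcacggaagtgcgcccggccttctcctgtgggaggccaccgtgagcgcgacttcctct
Itgb5: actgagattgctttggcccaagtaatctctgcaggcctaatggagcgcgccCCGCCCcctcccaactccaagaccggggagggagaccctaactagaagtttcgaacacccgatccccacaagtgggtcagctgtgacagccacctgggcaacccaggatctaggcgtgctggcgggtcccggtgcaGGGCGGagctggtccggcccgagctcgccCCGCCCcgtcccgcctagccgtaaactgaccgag
The GC box occurred at 2 places before *Itga5*, at 3 before *Itgb5* and at 0 before *Itgav*. It is a common element, found in 32.7% of 32851 promoter windows of the same table. The letters of an AP-1 site (TGANTCA, in 6.75% of windows) and of a TATA box (TATAAA, in 12.4%) were in none of the 3 windows. These matches are descriptions of sequence and were not tied to any binding measurement.

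The expression of each gene was then compared between LRCs and non-LRCs with experiment as a block. None of the 31 integrin and laminin genes tested passed an adjusted *p* of 0.05 (edgeR quasi-likelihood test), where 176 of all 13728 genes (1.28%) did. At an unadjusted *p* below 0.05, 6 members were higher in LRCs (19.4%, beside 8.89% of all genes), namely *Itga3*, *Itga5*, *Itga9*, *Itgb5*, *Lamb2* and *Lamc1*. At that level 1 member was lower (3.23%, beside 9.53% of all genes). Counted by direction alone, 7 members were higher in LRCs in all 3 experiments (22.6%, beside 20.4% of all genes) and 8 were lower in all 3 (25.8%, beside 26.1%), shares close to the background. All LRC libraries stood above all non-LRC libraries for 3 members (9.68%, beside 8.41%), *Itga4*, *Itga9* and *Itgb5*, and below them for 1 member (3.23%, beside 10.3%).

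The size of the call set depended on the tool. DESeq2 with the same block called 6 of 32 members (18.8%, beside 12.3% of all genes): *Itga3*, *Itga5*, *Itga9*, *Lamb2* and *Lamc1* higher and *Itgb3* lower. With limma-voom 4 of 31 passed (12.9%, beside 9.91%), *Itga3*, *Itga5*, *Itga8* and *Lamc1*, all higher in LRCs. Leaving out experiment 2, the experiment with the shallow LRC library, edgeR called 2 of 33 members (6.06%, beside 5.37%), *Itga5* and *Itga8*.

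Some cell type markers moved with the groups, and their part in the integrin and laminin values was not tested. Superficial articular and synovial markers summed to 1501 to 3132 CPM in LRCs against 211 to 290 CPM in non-LRCs. Of 10 tested, 3 passed as higher (*Prg4*, *Cilp* and *Clu*), beside 1.28% of all genes passing in either direction. Of the 10 chondrocyte markers 9 had negative estimates, 5 of them at an unadjusted *p* below 0.05 (beside 9.53% of all genes), with a median of −0.50 and none called by edgeR. Hypertrophic chondrocyte markers had negative estimates for all 8 genes, of which *Panx3* and *Mef2c* passed (beside 1.28% of all genes). Their sums were 835 to 1984 CPM in LRCs against 1079 to 2776 CPM in non-LRCs. Skeletal muscle markers (6.80 to 10.4 CPM and 13.9 to 16.4 CPM) and Schwann cell markers (416 to 490 CPM and 533 to 838 CPM) were lower in LRCs without overlap, with none called, and *Pax7* and *Myog* were at 0 in all libraries. Osteoblast markers summed to 1532 to 3278 CPM and 1327 to 2282 CPM and did not move one way. Of 8 tested, 4 had positive and 4 negative estimates, with a median of −0.05. At an unadjusted *p* below 0.05 in edgeR, 2 were higher (beside 8.89% of all genes) and 3 lower (beside 9.53%). *Col1a1* was the 1 that passed, as higher (beside 1.28% of all genes passing in either direction). Endothelial markers summed to 1.26 to 8.51 CPM and 1.79 to 2.41 CPM, and *Cdh5*, *Kdr*, *Emcn* and *Robo4* were at 0 throughout. Platelet markers (4.12 to 13.5 CPM and 4.57 to 7.33 CPM, *Pf4* at 0) and erythroid markers (0.12 to 0.717 CPM and 0.236 to 1.57 CPM) were low, and mural cell markers (461 to 1381 CPM and 457 to 1276 CPM) and epithelial markers (35.7 to 65.1 CPM and 31.8 to 41.7 CPM) overlapped between groups, with none called in any of these lists.

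**Figure D4:**
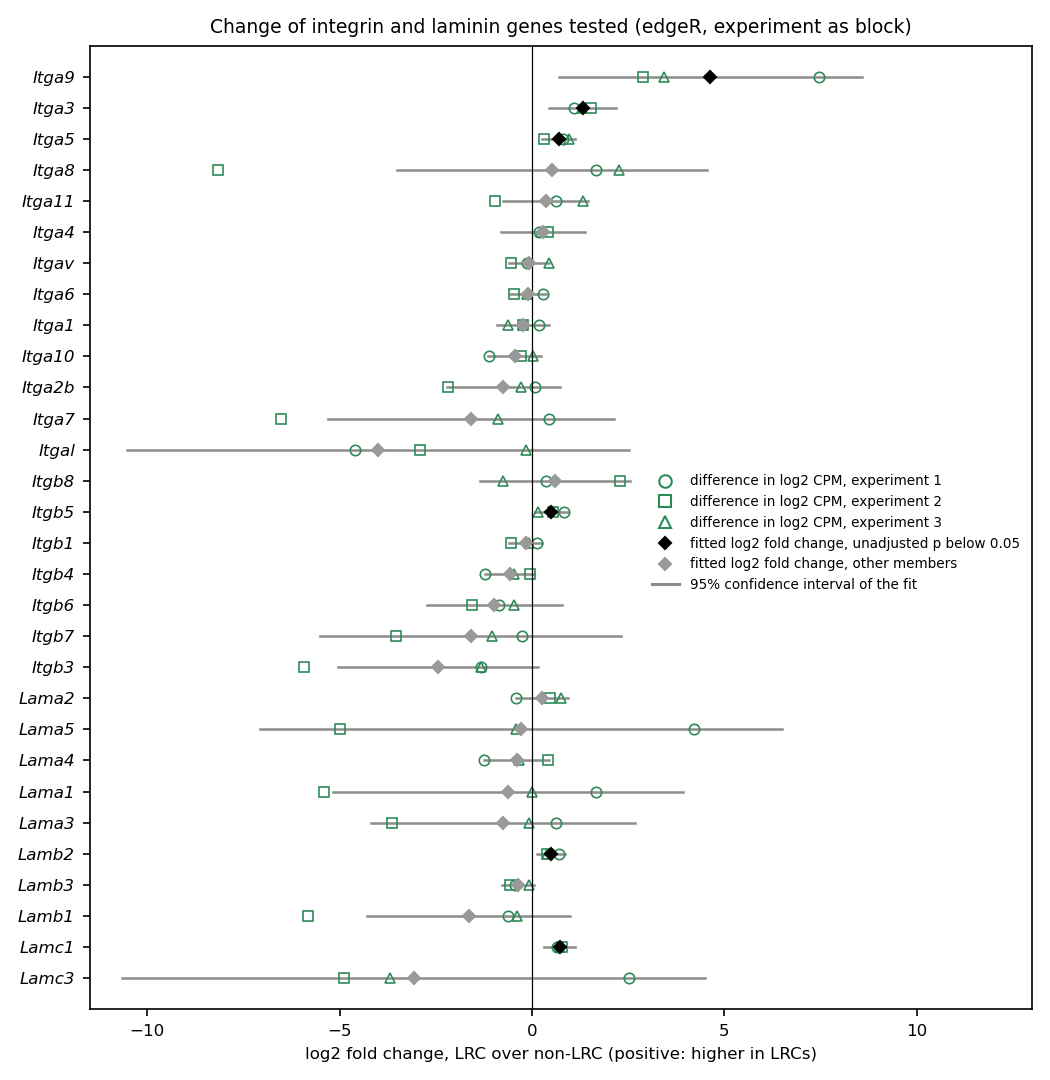
Log2 fold changes of integrin and laminin genes tested, LRC over non-LRC (horizontal axis), with diamonds for the edgeR estimate, bars for its 95% confidence interval and open symbols for the difference within each experiment. Black diamonds mark the 6 genes higher in LRCs at an unadjusted *p* below 0.05, and the squares of experiment 2 lie far to the left for *Itga8*, *Itga7*, *Itgb3* and *Lamb1*.

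*Itga5* (chr15:103344286-103366763) had 1217, 626 and 813 CPM in LRCs of experiments 1 to 3 and 695, 503 and 415 CPM in the non-LRC libraries. It was higher in LRCs within each experiment, although the LRC value of experiment 2 lay below the non-LRC value of experiment 1. The estimate was a log2 fold change of 0.70 ± 0.18 (s.e.; edgeR adjusted *p*=0.118), 1.62-fold. DESeq2 gave an adjusted *p* of 0.00218, limma-voom 0.0130, and edgeR without experiment 2 gave 0.0270 with a log2 fold change of 0.89.

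*Itga3* encodes a laminin-binding α chain. Its LRC libraries had 15.99, 8.13 and 6.14 CPM, and its non-LRC libraries had 7.52, 2.78 and 2.45 CPM. The 3 experiments showed similar differences in log2 CPM (1.08, 1.54 and 1.31), and the groups overlapped only between experiment 1 of non-LRCs and experiment 3 of LRCs. The log2 fold change was 1.32 ± 0.35 (edgeR adjusted *p*=0.132), or 2.49-fold.

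*Itga9*, an α chain that binds tenascin-C and osteopontin, was a low gene with a wide difference. It had 657, 122 and 153 counts in LRCs and 0, 29 and 15 in non-LRCs, or 5.63, 5.83 and 3.56 CPM against 0, 0.759 and 0.302 CPM. The groups did not overlap, and the fitted log2 fold change of 4.64 had a wide 95% interval of 0.69 to 8.59 (edgeR adjusted *p*=0.210), with 1 of its libraries at 0. DESeq2 gave an adjusted *p* of 0.00184 and limma-voom 0.0629.

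*Itgb5* had 127, 82.9 and 89.2 CPM in LRCs against 71.8, 57.2 and 79.9 CPM in non-LRCs. Each LRC value exceeded each non-LRC value, and the log2 fold change was 0.51 ± 0.18 (edgeR adjusted *p*=0.215), with differences of 0.83, 0.54 and 0.16 by experiment. Its partner *Itgav* had 245, 115 and 200 CPM in LRCs against 265, 168 and 148 CPM in non-LRCs and did not shift one way, with a log2 fold change of −0.07 ± 0.21 (95% interval −0.59 to 0.44). For *Itgb1*, at 817, 450 and 687 CPM in LRCs against 741, 650 and 723 CPM in non-LRCs, the interval ran from −0.58 to 0.27. The smaller *Itgav* share in LRCs thus stood beside *Itgav* levels whose groups overlapped.

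*Lamc1* (GRCm38 chr1:153218922-153332786, minus strand), the γ chain of most laminins, was the laminin with the most even difference. It had 88.3, 44.8 and 42.3 CPM in LRCs against 56.4, 25.8 and 25.9 CPM in non-LRCs. The differences in log2 CPM were 0.65, 0.79 and 0.71 in the 3 experiments and the log2 fold change was 0.72 ± 0.16, 1.64-fold (edgeR adjusted *p*=0.0942, DESeq2 0.00348, limma-voom 0.0334). The non-LRC value of experiment 1 lay above the LRC values of experiments 2 and 3, so that the groups overlapped although the LRC value was the higher in each experiment.

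*Lamb2* had 276, 73.3 and 195 CPM in LRCs against 169, 56.3 and 148 CPM in non-LRCs. The range between experiments was wider than the difference between groups, and the log2 fold change was 0.50 ± 0.15 (edgeR adjusted *p*=0.155, DESeq2 0.0289). *Lamb3* had 51.3, 37.2 and 57.7 CPM in LRCs against 69.6, 55.4 and 61.2 CPM in non-LRCs and its change was −0.37 ± 0.17 (edgeR adjusted *p*=0.334). *Lama4*, per kilobase the highest laminin α chain over both groups, had 21.9, 14.8 and 29.2 CPM in LRCs against 52.1, 11.02 and 37.1 CPM in non-LRCs. It was lower in LRCs in experiments 1 and 3 and higher in experiment 2, with a log2 fold change of −0.40 ± 0.34 (edgeR adjusted *p*=0.591). *Lama2* had 28.1, 23.1 and 40.0 CPM against 37.5, 16.8 and 23.8 CPM and a log2 fold change of 0.26 ± 0.28, with overlapping groups.

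With edgeR and all 6 libraries the remaining integrin α chains gave no call, and limma-voom called *Itga8* (log2 fold change 1.74, adjusted *p*=0.0132). *Itga4*, *Itga11* and *Itga8* had positive estimates (0.28, 0.36 and 0.52), and *Itga6*, *Itga1*, *Itga10*, *Itga2b*, *Itga7* and *Itgal* had negative ones, between −0.10 and −4.00. *Itga4* kept its groups apart by little, with 4.32, 5.31 and 5.07 CPM in LRCs against 3.83, 3.95 and 4.29 CPM in non-LRCs. *Itga8*, an RGD-binding chain, showed how 1 library can decide an estimate. It had 7984, 0 and 1903 counts in LRCs and 2240, 352 and 457 in non-LRCs, which made 68.4, 0 and 44.3 CPM against 21.7, 9.22 and 9.20 CPM. Its log2 fold change was 0.52 ± 1.65 with all libraries and 1.96 without experiment 2 (edgeR adjusted *p*=0.00900), but −1.33 without experiment 1 and −1.41 without experiment 3. The LRC library of experiment 2 had a limit of 0.143 CPM (3 counts) for a gene at 0, far below the level of *Itga8* in the other LRC libraries.

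Of the remaining β chains *Itgb8* was at 0.61 and *Itgb4*, *Itgb6*, *Itgb7* and *Itgb3* were negative. *Itgb3*, the β chain of the platelet and osteoclast integrins, had 531, 1 and 55 counts in LRCs and 1180, 185 and 162 in non-LRCs and a log2 fold change of −2.44 ± 1.06 (edgeR adjusted *p*=0.297, DESeq2 0.0442). It was lower in LRCs in all 3 experiments, by 1.32 and 1.33 log2 units in experiments 1 and 3 and by 5.93 in experiment 2, where the LRC library held 1 count. *Lamb1* was similar, with 517, 1 and 445 counts in LRCs and 702, 171 and 669 in non-LRCs. *Lama1*, *Lama3*, *Lama5* and *Lamc3* had at most 167 counts in any library and were at 0 in the LRC library of experiment 2. For these 4 the standard errors ran from 1.40 to 3.10 log2 units.

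The 6 members left out of the test had at most 38 counts in any library. *Itgb2*, the common β chain of leukocyte integrins, had 0, 0 and 38 counts in LRCs and 0, 8 and 25 in non-LRCs. *Itgad* had 0 counts in all LRC libraries and 23, 0 and 3 in non-LRCs, *Itgae* had 1 count in all and *Itgax* had 6, each in a single non-LRC library. *Itgam* had at most 15 counts, and 68.7% of its exon bases overlap another annotated gene. *Itga2*, the collagen-binding chain of platelets, had 25, 0 and 4 counts in LRCs and 0, 0 and 12 in non-LRCs. The sort took CD45-negative cells, a gate that removes leukocytes, and 13 leukocyte markers summed to 8.89 to 26 CPM in LRCs against 8.21 to 15 CPM in non-LRCs, with *Ptprc* at 0 in 5 of 6 libraries and none of the list called. The deposited counts name neither the gene annotation nor a strand setting, so reads of overlapping genes cannot be assigned with certainty, which concerns *Itga10* (33.5% of its exon bases) and *Itgad* (19.7%) besides *Itgam*.

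Across the 31 members, as over all genes tested, the range between libraries of a group was mostly wider than the fitted change. The median log2 fold change was −0.28 (−0.10 over all genes), with −0.13 for integrins and −0.40 for laminins, and 11 members had positive estimates and 20 negative. By experiment the median difference in log2 CPM of the members was 0.19, −0.54 and −0.08, and that of laminins alone 0.62, −1.27 and −0.08. Within at least 1 group the range between libraries exceeded the fold change for 30 of the 31 members (96.8%, beside 89.8% of all genes). That range includes differences between experiments, which the experiment block removes. It therefore does not measure the spread of the paired differences. The 95% interval stayed within a 2-fold change for 8 members and reached past it for 23, so that for most members a 2-fold difference lay within the interval.

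**Figure D5:**
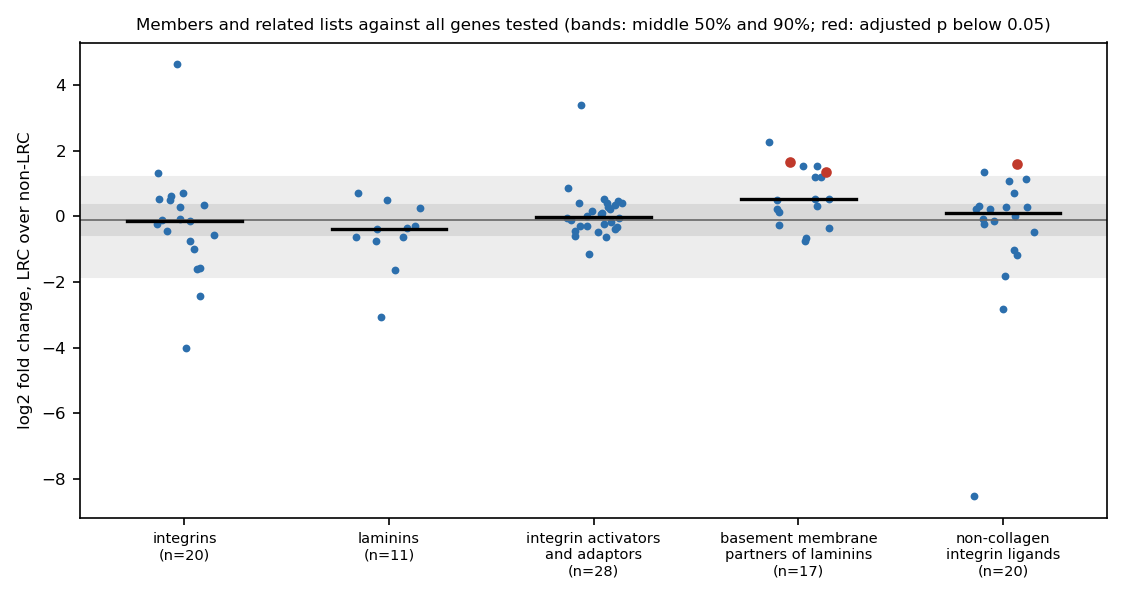
Log2 fold changes, LRC over non-LRC (vertical axis), of the integrins, laminins and 3 related gene lists, with 1 point per gene tested, black lines at the medians and red points for an edgeR adjusted *p* below 0.05. Grey bands hold the middle 50% and 90% of all genes tested; the basement membrane partners have the highest median, 0.52, and integrins and laminins hold no red point.

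Genes that act with integrins and laminins were looked at next, as lists chosen with earlier results of these data known. Of 28 integrin activators and adaptors tested, the proteins that link β chain tails to actin and signalling, none passed the adjusted threshold with edgeR (beside 1.28% of all genes), 6 passed with DESeq2 (beside 12.3%) and 3 with limma-voom (beside 9.91%). At an unadjusted *p* below 0.05, 6 were higher in LRCs (beside 8.89% of all genes) and 4 lower (beside 9.53%), and the median was −0.01. The 4 lower ones, named after their values were seen, were *Ilk*, *Lims2*, *Cd151* and *Vasp*. *Actn4* was the most abundant of the list at 910 ± 273 CPM in LRCs against 613 ± 108 CPM in non-LRCs, with a log2 fold change of 0.54 ± 0.15 (edgeR adjusted *p*=0.138).

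Among 17 basement membrane partners of laminins tested, *Col4a2* and *Smoc2* passed (beside 1.28% of all genes). The median was 0.52 (−0.10 over all genes), with 13 positive and 4 negative estimates (6038 and 7690 over all genes). At an unadjusted *p* below 0.05 in edgeR, 7 were higher (beside 8.89% of all genes) and 0 lower (beside 9.53%). *Col4a2*, a chain of the collagen network that underlies the laminin sheet, had 88.9 ± 57.9 CPM in LRCs against 34.9 ± 23.8 CPM in non-LRCs (log2 fold change 1.34 ± 0.17, edgeR adjusted *p*=0.0354). *Smoc2*, a calcium-binding matrix protein, had 882 ± 248 CPM and 293 ± 125 CPM (1.66 ± 0.21, edgeR adjusted *p*=0.0363). The abundant *Nid2* and *Hspg2*, which link laminin to the collagen network and to heparan sulphate, had −0.36 and −0.67 and did not pass.

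Of 20 non-collagen integrin ligands tested, 1 passed (beside 1.28% of all genes), *Icam1*, a ligand of leukocyte integrins. It was at 330 ± 41.3 CPM in LRCs against 110 ± 29.9 CPM in non-LRCs (log2 fold change 1.61 ± 0.15, edgeR adjusted *p*=0.0176). *Fn1*, the ligand of the *Itga5* and *Itgb1* pair, was the most abundant. It had 28139, 11102 and 18726 CPM in LRCs against 13035, 6695 and 6312 CPM in non-LRCs, and its log2 fold change of 1.14 ± 0.21 fell short of the threshold (edgeR adjusted *p*=0.0658). *Thbs1* (1.08), *Tnc* (0.71) and *Fn1* were the other ligands higher at an unadjusted *p* below 0.05, which made 4 (beside 8.89% of all genes). *Postn*, named after its values were seen, was the 1 lower ligand at that level (beside 9.53% of all genes). It had 0 counts in all LRC libraries and 71, 29 and 42 in non-LRCs. The list median was 0.11. Without the experiment block 0 genes passed among these ligands and 0 among the basement membrane partners, where 1 of all genes passed. Without experiment 1 the ligands had 0 calls and the partners 1, where 35 of all genes passed. Without experiment 2 both had 3, beside 782 of 14568 genes (5.37%). The number of calls over all genes thus changed with the fit as well.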

How the data were processed

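Integrin and laminin RNA was measured in 3 LRC and 3 non-LRC bulk libraries, grouped by the deposited labels. The authors amplified cDNA from sorted cells, aligned single-end reads with TopHat2 2.0.13 and Bowtie2 2.2.1 to mm10 (GRCm38) and counted them per gene with HTSeq. The deposited values used here are whole counts per gene, and the gene annotation and strand setting are not given in the sources used here. A second deposited table holds a normalised signal, the authors' counts divided by DESeq2 size factors, and was used only to check that relation. A table of regularised log values was not used. Some results are not reported here.

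Counts were fitted with edgeR 4.0.16 in R 4.3.3, with TMM scaling, filterByExpr (minimum count 10, minimum total 15), a term for experiment and Benjamini-Hochberg adjustment over 13728 genes, and a gene was called at an adjusted *p* below 0.05. DESeq2 1.42.0 and limma 3.58.1 were alternatives, with other filters, scaling, thinning and experiments left out in turn. The experiment number pairs the libraries, since the study pooled littermates per experiment, and the deviations from the group means correlated within experiments at 0.197, 0.288 and 0.336 over 13728 genes. Log2 CPM used a prior count of 2, and CPM used effective library sizes. Standard errors are the log2 fold change over the root of the quasi-likelihood F, and intervals are 95%. Exon lengths (union of exons) and coordinates came from GENCODE on GRCm38, and promoters from RefSeq. The procedure was tested on 3 simulated data sets with 200 genes changed. The median share of false genes among those called was 9.49% with edgeR and the block. It was 33.7% with DESeq2 and 16.5% with limma-voom, all above the 5% aimed at. The median share of changed genes recovered was 71.5%, 83.5% and 73% in the same order. The changed genes were drawn from those with higher counts, with log2 fold changes of 1.5 or 3 in either direction. The recovered shares therefore do not apply to smaller changes or to genes with low counts, as many members had. Given the shares of false genes, calls by any of these tools are less certain than their adjusted *p* states, above all those by DESeq2 or limma-voom alone. The simulated counts were drawn from means and dispersions fitted by edgeR, which may favour edgeR in this comparison. Members and gene lists were chosen with earlier results of these data known. All 6 values are printed for the members higher in LRCs at an unadjusted *p* below 0.05 and for the highest integrin α and β and laminin α and β chains. They are also printed for further members chosen after their values were seen. From the other lists, genes with an adjusted *p* below 0.05 and abundant genes are named. Libraries held 18943789 to 129559872 counts, so that 3 counts equal 0.0257 to 0.143 CPM. *P*-values rest on 3 pairs of pools.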

Additional observations from a re-analysis of the deposited data

How the results depend on the processing

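The count of integrin and laminin genes called was 0 with edgeR and the experiment block, and stayed 0 with no replicate block, with DESeq2 size factors, without the filter and after thinning to the smallest library. It was 6 with DESeq2, 4 with limma-voom, 1 (*Itga5*) with at least 10 counts in every library, and 0 to 2 on leaving out 1 experiment at a time. Over all genes the count went from 176 to 1 with no replicate block, 1692 with DESeq2, 1361 with limma-voom, 751 with at least 10 counts in every library and 35 to 782 without 1 experiment, with 782 without experiment 2. Adaptors gave 6 calls with DESeq2 and 3 with limma-voom. Basement membrane partners gave 0 with no replicate block, 5 with DESeq2, 5 with limma-voom, 4 with at least 10 counts and 1 to 3 without 1 experiment. Ligands gave 0, 4, 5 and 4 in the same order, 2 after thinning and 0 to 3 without 1 experiment.

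Of the member fold changes recomputed, 268 kept their direction and side of the threshold, 13 passed it and 15 changed sign. With limma-voom the log2 fold changes of *Itga6* (0.0077), *Lama1* (0.41), *Lama3* (0.046) and *Lama5* (0.94) turned positive. On leaving out 1 experiment at a time, the estimates ranged from −0.13 to 0.97 for *Itga11*, −0.30 to 0.084 for *Itga6*, −1.41 to 1.96 for *Itga8*, −0.31 to 0.16 for *Itgav*, −0.31 to 0.033 for *Itgb1*, −0.17 to 1.36 for *Itgb8*, −2.62 to 0.87 for *Lama1*, −1.93 to 0.28 for *Lama3*, −0.80 to 0.031 for *Lama4* and −2.84 to 2.18 for *Lama5*. The cause was not tested. With the longest transcript as length, the *Itga5* share was 76.0% in LRCs and 66.4% in non-LRCs. In LRCs *Lama4* took 51.4% and *Lama2* 45.3% with that length, against 46.3% and 48.0% with the union of exons. Which of these chains had the larger mean share in LRCs therefore depended on the length used.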
